A study of Mus musculus with 8 samples.

Results

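CD4 T cells made up 4876 of the 22441 CD45+ cells measured by droplet single-cell RNA sequencing in grafts of NIT-1 beta cells, a beta cell line of NOD mouse origin. They were the cells that carry the deposited cell type annotation CD4 T cell, in all 4 libraries, and were compared with 3449 CD8 T cells and 505 regulatory T cells (Treg) of the same grafts. WT and Rnls mutant (Rnls mut) NIT-1 cells were placed under the skin of opposite flanks of immunodeficient NOD.scid mice, which lack T and B cells of their own. Splenocytes of recently diabetic NOD mice were transferred intravenously 4 days later, so that the T cells described here came from these donor splenocytes. Grafts were taken 10 or 17 days after transfer, digested with Collagenase D and DNase at 37 °C, and sorted for live CD45+ cells. All grafts shared the NIT-1 line, the NOD.scid host, the donor splenocyte transfer and the digestion, and they differed in the Rnls genotype of the NIT-1 cells and in the day. The age and the sex of the mice, and which grafts came from the same mouse, are not given in the sources used here. Each of the 4 libraries held 4 grafts of 1 genotype and 1 day, told apart by hashtag antibodies, which gave 16 grafts. Genotype at 1 day, and day within 1 genotype, therefore cannot be told apart from the library. The gene Rnls itself was not analysed here, and since it was targeted in the NIT-1 cells, its level in sorted immune cells would not check the labels.

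CD4 T cells recognise peptides presented on MHC class II through their T cell receptor, with the CD4 molecule as coreceptor, and they act mainly through cytokines and through surface ligands such as CD40 ligand. Th1 cells, which express the transcription factor T-bet (Tbx21) and the cytokine IFNγ (Ifng), are the best known effector form in autoimmune diabetes of NOD mice, while T follicular helper cells make IL-21 and Foxp3+ Treg restrain the response. Repeated antigen contact raises early activation genes such as Nr4a1 and inhibitory receptors such as Ctla4, and memory or stem-like cells keep Tcf7, Lef1 and Klf2.

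The CD4 T cells numbered 1564 of 7617 cells in WT day 10 grafts, 1927 of 6652 in Rnls mut day 10 grafts, 478 of 2690 in WT day 17 grafts and 907 of 5482 in Rnls mut day 17 grafts. Single grafts held between 57 and 614 of them, with 215098 to 2066137 UMIs (unique molecular identifiers, each standing for 1 captured RNA molecule) per graft. The median was 2823.5 UMIs per cell, and by group it was 2695.5, 2998, 4336.5 and 2298 in the order above. Levels are given as UMIs per 1000000 UMIs of the CD4 T cells of a graft (CPM), and values in sequence are those of grafts 1 to 4. Of all cell barcodes, 42 occurred in more than 1 library, and 18 CD4 T cells carried one of them.

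As a share of all CD45+ cells of the graft, CD4 T cells made up 11.8%, 26.8%, 22.9% and 20.2% in WT day 10 grafts and 32.8%, 16.3%, 6.21% and 18.4% in WT day 17 grafts. The WT days overlapped, at 20.4 ± 6.35% and 18.4 ± 11% (mean ± SD, n = 4 grafts each, exact permutation test, two-sided, p = 0.8). In Rnls mut grafts the shares were 13.5%, 32.0%, 37.0% and 33.4% at day 10 and 21.3%, 12.7%, 14.3% and 16.7% at day 17, or 29.0 ± 10.5% and 16.3 ± 3.75% (exact permutation test, two-sided, p = 0.114). Grafts 2, 3 and 4 of Rnls mut day 10 stood above every day 17 graft, while graft 1 lay among them. Without that graft the difference was -17.9 percentage points and the exact permutation p was 0.0286, the smallest value that 4 against 3 grafts allow. Leaving out any other single Rnls mut graft gave differences of -14.4 to -10.0 points and exact permutation p of 0.114 to 0.229. Counting error alone gave a 95% interval (exact Clopper-Pearson) of 4.86 to 7.79% for the lowest share, in WT day 17 graft 3, and of 34.6 to 39.4% for the highest, in Rnls mut day 10 graft 3. The direction depended on the denominator: as a share of all cells but macrophages, CD4 T cells had means of 24.4% at day 10 and 35.5% at day 17 in WT grafts (p = 0.171) and of 33.8% and 41.8% in Rnls mut grafts (p = 0.543, exact permutation tests, neither past the threshold). A fall in the number of CD4 T cells and a rise in other cells cannot be told apart from shares, and no cell numbers per graft are given.

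The markers of the annotation are given as a description. The cells were clustered and annotated on the same counts, so the values do not test the annotation. Cd3e, a subunit of the T cell receptor complex, stood at 964 ± 105 CPM in CD4 T cells (mean ± SD over 16 grafts), at 1065 in CD8 T cells and 1180.2 in Treg, but at 2.94 in NK cells and 1.76 in macrophages. Cd4, the coreceptor, stood at 287 ± 67 CPM against 58 in CD8 T cells and 160.3 in Treg, and was higher than in CD8 T cells in 16 of 16 grafts and than in Treg in 14 of the 14 grafts with at least 10 Treg. Cells annotated Stem-Progenitor, a further deposited type, had 71.9 CPM of Cd4. In single cells, a Cd4 UMI was found in 49.3% of CD4 T cells and in 5.2% of CD8 T cells, or in 21.0% and 2.6% after every cell was thinned to 1000 UMIs. The corresponding share in macrophages, which should hold little Cd4, was 1.5% (0.5% thinned) at a median of 4719 UMIs per cell. Cd8a was found in 2.6% of CD4 T cells (1.2% thinned), and Foxp3, the defining factor of Treg, in 0.3%, with 17 UMIs in all against a mean level of 302 CPM in Treg.

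Ligands of the TNF family and cytokines of helper cells were among the genes whose levels set CD4 T cells apart from the other annotated types. The values that follow describe how the annotated types differ and carry no test, because the cells were clustered and annotated on the same counts. Tnfsf8, which encodes CD30 ligand, averaged 301 ± 176 CPM against 8.82 in CD8 T cells and 17.9 in Treg. Tnfsf11, the gene of RANKL, averaged 155 ± 89.2 CPM against 2.77 and 22.2. Cd40lg, the CD40 ligand through which helper cells act on B cells and dendritic cells, averaged 243 ± 64.3 CPM against 29.2 and 40.3. All 3 ligands were thus several times lower in both other T cell types. Cells annotated Stem-Progenitor came closer, with Tnfsf8 at 42.2, Tnfsf11 at 43.8 and Cd40lg at 111 CPM. A Cd40lg UMI was found in 36.7% of CD4 T cells (17.9% thinned) and in 0.1% of macrophages.

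Il2, the T cell growth factor, was at 48.4 CPM against 1.38 in CD8 T cells, and Il21 at 23.1 against 0.239, with no UMI in Treg. Il21 stood at 9.77 CPM in cells annotated Stem-Progenitor. Il2 was found in 3.1% of CD4 T cells and 0.7% of macrophages, so that few cells carried the level. The chemokine gene Ccl1 averaged 62.3 ± 77.7 CPM, a spread wider than its mean, against 11.8 in ILC1. Tnfrsf4, the costimulatory receptor OX40, was high in both CD4+ types, at 634 CPM in CD4 T cells and 1709 in Treg, and was below the Treg level in all 14 grafts.

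Ifng and other genes of Th1 cells were well detected. Ifng averaged 759.6 CPM, against 335 in CD8 T cells, 247 in NK cells and 824 in ILC1, and an Ifng UMI was found in 31.7% of CD4 T cells and 0.4% of macrophages. Tbx21 stood at 109 CPM, close to the 133 of CD8 T cells and below the 299 of ILC1. Cxcr6, a receptor of tissue-resident lymphocytes, stood at 591 CPM against 528 in CD8 T cells. Genes of cytotoxic lymphocytes were lower than in CD8 T cells, with the chemokine Ccl5 at 716 against 15047 CPM, the granule protein gene Nkg7 at 646 against 1335, and granzyme B (Gzmb) at 236 against 1380.0. Gata3, the factor of Th2 cells that T cells also express more widely, stood at 129 CPM against 69.6 in CD8 T cells. There were 2 UMIs of the Th17 cytokine Il17a, 33 of the Th2 cytokine Il4 and 41 of Il10 in all 4876 cells.

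**Figure D1:**
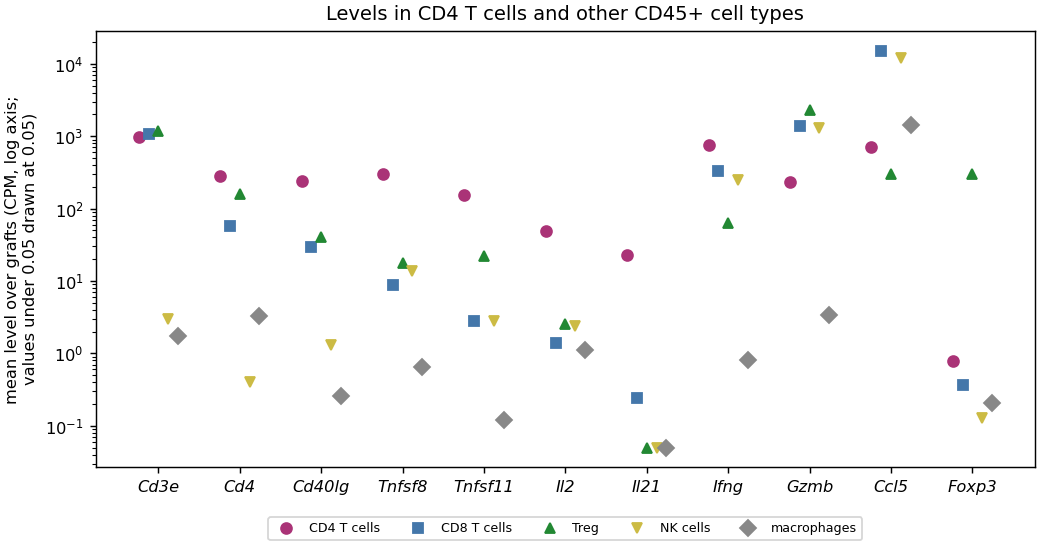
Mean level over grafts (CPM, log axis) of 11 genes in CD4 T cells, CD8 T cells, Treg, NK cells and macrophages, with values under 0.05 drawn at 0.05. CD4 T cells have the highest Cd4 (287), Cd40lg (243), Tnfsf8, Tnfsf11, Il2, Il21 and Ifng of the 5 types, while CD8 T cells have the highest Ccl5 and Treg the highest Gzmb and Foxp3.

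The CD4 T cells fell into 4 of the deposited clusters, numbered 0, 7, 8 and 22, with 2110, 1367, 1160 and 239 cells, or 43.3%, 28.0%, 23.8% and 4.90%. Their median depths were alike, at 2861.5, 2920, 2677 and 2426 UMIs per cell. Cd3e stood at 983, 963, 969 and 796 CPM and Cd4 at 240.2, 236, 355 and 204 in this order. The genes named next are those with the highest ratio to the other CD4 T cells, and they describe the clustering.

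Cluster 0 led in chemokines and IFNγ, with Ccl1 at 149.6 against 8.02 CPM in the other CD4 T cells, Ccl3 at 134 against 11, Ccl4 at 382 against 51.2 and Ifng at 1299 against 421, and in heat shock genes, with Hspa1a at 921 against 319 and Hspd1 at 1065 against 422. It also held most Il2, at 91.8 CPM against 10.2, 21.4 and 7.59 in clusters 7, 8 and 22. Cluster 7 led in interferon-inducible membrane protein genes, with Ifitm1 at 5392 against 291, Ifitm2 at 1990.5 against 454 and Ifitm3 at 1079.6 against 338, and in Lgals3 and Anxa1, the genes of galectin 3 and annexin A1. Cluster 8 led in early response genes, with Fos at 218 against 37.3, Egr1 at 147 against 38.1 and Dusp1 at 161 against 49.8, and in Mpp7 at 613 against 140.1 and Inpp4b at 948 against 304. Ccl8 and Wfdc17, both high in macrophages, were also among its leading genes, at 304 against 86.1 and 189 against 43.1 CPM. Cluster 8 had the highest Ctla4, at 609 CPM against 250.5, 152 and 257 in clusters 0, 7 and 22. Cluster 22 led in Gm42418, a gene that overlaps ribosomal RNA, at 43634 against 2740.2 CPM, and held Ccl5 at 4491 against 487, Gzma at 503 against 82.6 and Cd8b1 at 105 against 19.3, so that it carried CD8 and cytotoxic transcripts beside its CD4 annotation.

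Cluster 0 held 61.5%, 63.4%, 59.8% and 61.8% of the CD4 T cells of WT day 10 grafts and 72.3%, 62.7%, 45.5% and 49.8% in Rnls mut day 10 grafts, but 4.18%, 8.77%, 21.7% and 10.8% in WT day 17 grafts and 5.83%, 3.86%, 11.2% and 4.40% in Rnls mut day 17 grafts. Cluster 8 held 5.91 ± 6.35% and 5.29 ± 1.69% of the cells of WT and Rnls mut day 10 grafts, and 71.2 ± 9.11% and 68.1 ± 6.91% of those of day 17 grafts (mean ± SD, n = 4). Clusters 0 and 8 thus did not overlap between days in either genotype. Their leading genes, such as Hspa1a and Egr1, themselves differed between the days, so the shares describe that difference and were not tested. Cluster 7 held 27.4 ± 5.26%, 32.7 ± 13.6%, 11.5 ± 5.45% and 18.3 ± 8.78% in WT day 10, Rnls mut day 10, WT day 17 and Rnls mut day 17 grafts, and cluster 22 held means of 5.04%, 4.43%, 5.94% and 7.22%.

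**Figure D2:**
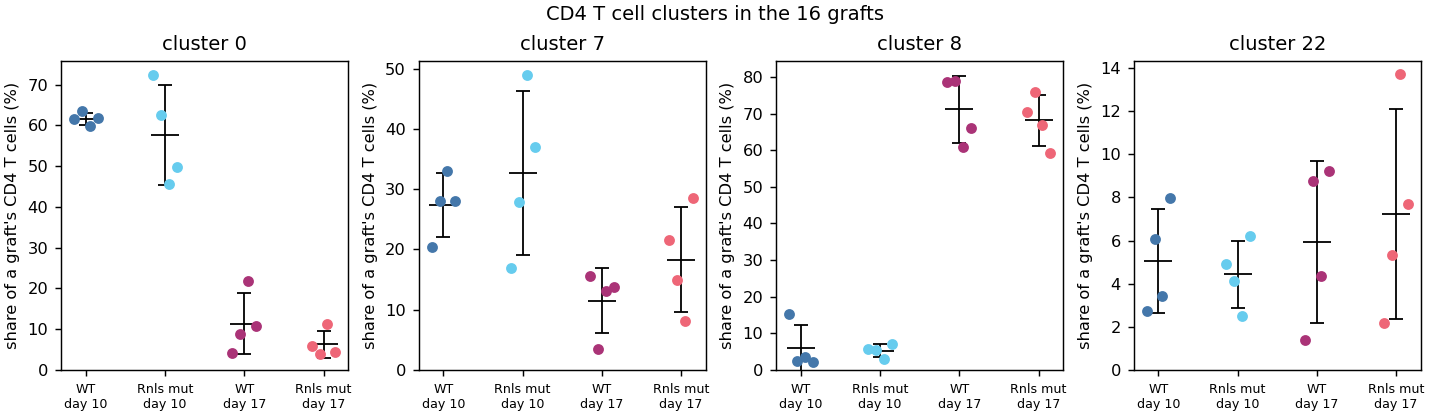
Share of the CD4 T cells of a graft (%) in clusters 0, 7, 8 and 22, with 1 point per graft and the mean ± SD of 4 grafts per genotype and day. Cluster 0 holds 45.5% or more of the cells of each day 10 graft and 21.7% or less in each day 17 graft, and cluster 8 holds 15.4% or less at day 10 and 59.3% or more at day 17.

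Sums of UMIs over the CD4 T cells of each graft were then compared between days within each genotype (edgeR quasi-likelihood test over 7858 genes, Benjamini-Hochberg adjusted p under 0.05). In WT grafts 1630 genes (20.7%) differed, with 833 (10.6%) higher and 797 (10.1%) lower at day 17, and in Rnls mut grafts 1766 (22.5%), with 949 (12.1%) higher and 817 (10.4%) lower. Of these, 928 passed in both genotypes, which was 56.9% of the WT calls and 52.5% of the Rnls mut calls, and 919 of them moved the same way, 484 up and 435 down. The cluster makeup moved with the day, so the counts of some gene groups are also given within 1 cluster, with fewer cells per graft. The counts of list members that follow are read against the shares of all genes just given. Over cells of cluster 7 alone 534 of 5833 tested genes passed in Rnls mut grafts, 257 higher and 277 lower. Over cluster 8 alone 3366 genes were tested. There 30 passed in WT grafts (4 higher and 26 lower) and 56 in Rnls mut grafts (28 higher and 28 lower). Counts of list members within a cluster are read against these smaller totals. Grafts with under 10 cells of the cluster were left out of these fits, which left only graft 1 in WT day 17 for cluster 7 (45 cells, with its spread taken from the other groups), and left out graft 4 of WT day 10 (8 cells) for cluster 8. Leaving out 1 graft at a time gave 943 to 1900 and 1111 to 1620 calls, and the lowest counts came without graft 1 of WT day 17 and without graft 1 of Rnls mut day 17, which held most cells of their groups.

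Among the genes that fell most were heat shock genes, whose products are chaperones that keep proteins folded and that cells induce under heat and other stress. Their transcription is driven by heat shock factor 1 through a DNA element of inverted GAA repeats, so the promoters are shown here beside the levels. RefSeq promoter windows (250 bases before to 50 after a gene start, GRCm38.p6) were searched on both strands for 3 units in a row that alternate between GAA and TTC, each 2 bases of any kind apart (NN), starting with either unit. Read on the other strand, the form that starts with GAA becomes the one that starts with TTC. A match was found in 198 of 32851 windows (0.603%), and in 3 of the 8 heat shock genes that had a window (Hspd1, Hspe1 and Hsph1). Hspd1 and Hspe1 lie head to head and share the same stretch. Printed 5′ to 3′ on the strand of the gene, with the match in capitals, are the 250 bases before the start of Hspe1 (chr1:55087898-55088147, plus strand, match 89 to 72 bases before the start), the 250 bases before the start of Hspa1a (chr17:34972157-34972406, minus strand, no match) and the first 30 bases after the start of Hsph1 (chr5:149636286-149636315, minus strand, match at bases 16 to 28). A match is a description of letters and not a measured binding site, and no match says only that these letters were not in the window.
Hspe1: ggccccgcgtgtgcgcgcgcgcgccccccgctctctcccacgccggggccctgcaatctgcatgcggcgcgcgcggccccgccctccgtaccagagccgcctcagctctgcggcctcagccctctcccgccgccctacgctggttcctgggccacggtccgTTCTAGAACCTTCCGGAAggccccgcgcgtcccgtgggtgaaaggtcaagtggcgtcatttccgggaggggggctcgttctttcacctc
Hspa1a: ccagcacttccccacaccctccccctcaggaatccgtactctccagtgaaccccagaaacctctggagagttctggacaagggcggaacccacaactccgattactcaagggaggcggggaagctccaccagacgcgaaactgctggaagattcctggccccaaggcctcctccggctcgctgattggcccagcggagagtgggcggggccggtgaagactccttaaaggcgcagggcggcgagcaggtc
Hsph1: gtaaaatgctgcagaTTCTGGAAAGTTCtc

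Hsph1, which encodes the chaperone HSP105, had 482, 876, 623 and 914 CPM in WT day 10 grafts and 33, 61.9, 54 and 97.8 in WT day 17 grafts. Rnls mut grafts had 1119, 1073, 969 and 600.1 CPM at day 10 and 34.9, 64.2, 42 and 97.6 at day 17. No day 17 graft reached a day 10 graft of either genotype, and the log2 fold changes were -3.92 ± 0.30, adjusted p = 1.11e-08 in WT and -4.26 ± 0.30, adjusted p = 5.71e-10 in Rnls mut grafts (± SE). Hspe1, the mitochondrial cochaperone of the printed promoter, had 914, 958, 789 and 1051 CPM in WT day 10 and 160.2, 206, 214 and 300.0 in WT day 17 grafts, and 1207, 1042, 789 and 681 and 165, 199, 172 and 181 in Rnls mut grafts. It fell by 4.86-fold in WT and by 5.51-fold in Rnls mut grafts (adjusted p = 1.11e-08 and 7.29e-10).

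Hspa1a, the inducible HSP70, was the gene with the deepest fall among these, from 320.4, 631, 268 and 642 CPM to 3.07, 16.5, 6.0 and 84.3 in WT grafts. In Rnls mut grafts it went from 1684, 1346, 1122 and 525 to 21.1, 33.2, 28 and 41.8 CPM. The day groups were apart in both genotypes (-4.90 ± 0.57, adjusted p = 2.60e-06 and -5.46 ± 0.51, adjusted p = 6.60e-08), and the day 17 levels were low enough that the amount of free RNA estimated from macrophage transcripts equals 18.7% and 50.6% of them. Its counts are shared with the near-identical copy Hspa1b and the split between the copies is uncertain. Hsp90aa1, an inducible HSP90, fell by 6.27-fold and 7.41-fold in WT and Rnls mut grafts, with Hspd1, the mitochondrial chaperonin, at -2.65 ± 0.19 and -3.08 ± 0.20 on the log2 scale. The heat shock and dissociation list holds 17 genes, of which 16 were tested. In WT grafts 11 of them fell and 5 rose, and in Rnls mut grafts 10 fell and 3 rose, against 10.1% and 10.4% of all genes that fell. The medians of the list were -1.54 and -1.85 against 0.03 and -0.0026 over all genes tested. All 10 tested heat shock protein genes were among those that fell in both genotypes, and the fall of Ier3 in WT grafts was the only other one. The rises were Fos, Egr1 and Socs3 in both genotypes and Jun and Atf3 in WT grafts, which are early response genes and no chaperones. The rise of Socs3 in Rnls mut grafts (0.68 ± 0.21, adjusted p = 0.0224) was lost without graft 2 of Rnls mut day 10 or without graft 2 or 3 of Rnls mut day 17 (0.54 to 0.68, adjusted p 0.0553 to 0.105). Within cluster 7 alone 10 members fell in Rnls mut grafts, and within cluster 8 alone 9 fell in each genotype.

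The sum of heat shock genes was also higher at day 10 in the other cell types. The summed level of 11 heat shock genes in CD4 T cells was 15054 ± 2929 CPM in WT day 10, 18772 ± 3277 in Rnls mut day 10, 4423 ± 831 in WT day 17 and 4161 ± 629.6 in Rnls mut day 17 grafts (mean ± SD, n = 4). In CD8 T cells it was 14052, 15927, 4419.6 and 4103, in NK cells 18564, 18276, 4362 and 4255, and in macrophages 16806, 18812, 4342 and 4339.7 CPM. Treg were lower at day 10, at 7548 and 7862 CPM, and at day 17 stood at 3532 and 2846 (n = 3 grafts each). In a fit of both types, none of the 17 tested genes of the list differed in its day change between CD4 and CD8 T cells. Compared with Treg, the day change of CD4 T cells was more negative for Hsp90aa1 (-0.86 ± 0.19, adjusted p = 0.00852) and Hsp90ab1 (-0.64 ± 0.14, adjusted p = 0.00852), calls lost without graft 4 of WT day 17 for Hsp90aa1 (-0.68, adjusted p 0.0656) and without graft 1 of Rnls mut day 17 or graft 3 of WT day 17 for Hsp90ab1 (-0.56 to -0.48, adjusted p 0.0544 to 0.107). The direction was thus shared by lymphoid and myeloid types of the same libraries, and the part of the day and that of the library cannot be told apart.

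**Figure D3:**
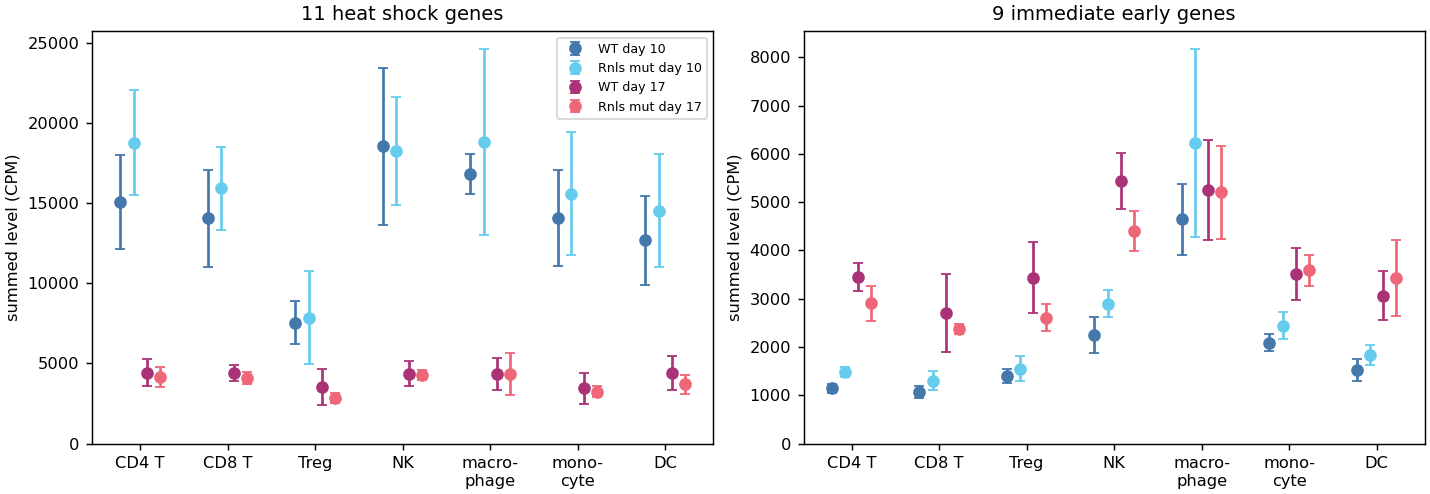
Summed level (CPM) of 11 heat shock genes and of 9 immediate early genes in 7 cell types, with points for the mean and bars for the SD over the grafts of each genotype and day. The heat shock sum is higher at day 10 than at day 17 in all 7 types (in CD4 T cells 15054 against 4423 in WT grafts). The mean immediate early sum is higher at day 17 in both genotypes in all types but macrophages. In macrophages it goes from 4642 to 5248.7 CPM in WT and from 6224.5 to 5207.5 in Rnls mut grafts.

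Early activation genes moved the other way. Junb, a subunit of the AP-1 transcription factor, rose from 691, 546, 515 and 612 CPM in WT day 10 grafts to 1924, 1736, 1919.5 and 1642 in WT day 17 grafts (1.46 ± 0.12, adjusted p = 1.79e-08). The rise in Rnls mut grafts was from 791, 628, 684 and 653 to 1037, 1571, 1313 and 1274 (0.83 ± 0.12, adjusted p = 3.38e-05). No day 17 graft overlapped a day 10 graft. Cd69, a surface molecule of recently activated and of tissue-resident T cells, stood at 131, 121, 103 and 138 CPM in WT day 10 and 405, 404, 576 and 391 in WT day 17 grafts, and at 220.5, 143, 159 and 145 and 337, 323, 358 and 330.1 in Rnls mut grafts. It rose by 3.25-fold and 1.93-fold, adjusted p = 2.92e-08 and 5.19e-05. A Cd69 UMI was found in 23.3%, 28.6%, 61.3% and 42.0% of the cells of WT day 10, Rnls mut day 10, WT day 17 and Rnls mut day 17 grafts, and in 11.3%, 12.7%, 29.5% and 26.1% after thinning to 1000 UMIs.

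Nr4a1, an orphan nuclear receptor induced by T cell receptor signals, had 88.7, 68.6, 63.7 and 80.7 CPM in WT day 10 and 251, 181, 354 and 229 in WT day 17 grafts. Levels in Rnls mut grafts were 131, 95.3, 97.7 and 93.9 and 253, 236, 212 and 228 CPM. All day 17 grafts were above all day 10 grafts (1.64 ± 0.16, adjusted p = 2.65e-07 and 1.10 ± 0.15, adjusted p = 3.15e-05). Egr1, a zinc finger factor of the same response, rose by 3.30-fold and 2.72-fold. Of the 31 tested genes of the T cell receptor signal and activation list, 15 rose and 1 fell in WT grafts and 14 rose and 2 fell in Rnls mut grafts, against 10.6% and 12.1% of all genes that rose. Fos, Fosb, Irf4, Nr4a3, Dusp1, Zfp36 and Nfatc1 rose in both, and Irf8, a factor mostly of myeloid cells, fell in both. The list summed to 7633 ± 369, 8037 ± 97.8, 11989 ± 1404 and 10843 ± 445 CPM in WT day 10, Rnls mut day 10, WT day 17 and Rnls mut day 17 grafts.

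Within single clusters fewer genes of any kind passed. Within cluster 8 alone 1 of 28 tested members rose in WT grafts and none in Rnls mut grafts. Of all 3366 genes tested there, 4 rose in WT grafts and 28 in Rnls mut grafts. Egr1 had log2 fold changes of -0.01 and -0.80 within cluster 8, neither of which passed. Within cluster 7 alone 7 members rose and 4 fell in Rnls mut grafts, against 257 and 277 of all 5833 genes tested. Whether the rise of the list differed between clusters was not tested. The immediate early sum of 9 genes was also higher at day 17 in CD8 T cells (1068 ± 128 and 2708 ± 801 CPM in WT grafts) and NK cells (2239.9 ± 374 and 5447 ± 579.8), but in macrophages the days overlapped.

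Genes of effector molecules fell at day 17 in part. Ifng had 1655, 489.8, 978 and 746 CPM in WT day 10 and 1069, 227, 1617 and 162 in WT day 17 grafts, where grafts 1 and 3 were as high as at day 10 (-0.43 ± 0.45, adjusted p = 0.552). In Rnls mut grafts it had 1522, 942, 593 and 926 at day 10 and 195, 303, 264 and 465 at day 17, with every day 17 graft below every day 10 graft (-1.85 ± 0.49, adjusted p = 0.00883). A single cell gave 852 of the 1291 Ifng UMIs of Rnls mut day 10 graft 1 and 708 of the 1250 of WT day 10 graft 1. The difference between the genotypes in the day change did not pass (-1.42 ± 0.66, adjusted p = 0.557). Gzmb had 275, 395, 366 and 308 CPM in WT day 10 and 50.6, 189.7, 410.3 and 60.7 in WT day 17 grafts, and graft 3 of day 17 stood above all of day 10. Rnls mut grafts had 220.5, 399.6, 434 and 375 and 95.6, 39.4, 66.1 and 97.6 CPM, without overlap. The log2 fold changes were -1.14 ± 0.39, adjusted p = 0.0418 and -2.36 ± 0.43, adjusted p = 0.000475, and their difference did not pass (-1.21 ± 0.59, adjusted p = 0.571). The WT call was lost without any of grafts 2, 3 and 4 of WT day 10 or grafts 1, 2 and 4 of WT day 17, where the log2 fold change lay between -1.19 and -0.71 and the adjusted p between 0.0567 and 0.184.

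Gzma, granzyme A, was more even, with 132, 111, 103 and 140.4 CPM in WT day 10 and 15.3, 86.6, 18 and 84.3 in WT day 17 grafts and 166, 114, 142 and 138 and 19.3, 45.6, 6.0 and 9.30 in Rnls mut grafts. It fell without overlap in both genotypes (-1.89 ± 0.38, adjusted p = 0.00111 and -2.80 ± 0.40, adjusted p = 3.44e-05). Of 15 tested genes of the cytotoxicity list, 5 fell and 1 rose in WT grafts and 3 fell in Rnls mut grafts, against 10.1% and 10.4% of all genes that fell. Within cluster 7 alone 5 members fell in Rnls mut grafts. Within cluster 8 alone none fell in WT and 2 fell in Rnls mut grafts. Over cluster 0 alone Gzmb had a log2 fold change of 0.63 in WT grafts, which did not pass. Ccl1 fell in both genotypes, from 246, 16.6, 103 and 119 to 9.97, 24.7, 22 and 0 CPM in WT and from 196, 147, 63 and 38.7 to 5.52, 0, 4.0 and 0 in Rnls mut grafts (adjusted p = 0.00441 and 0.0013). Of these, 217 of the 249 UMIs of Rnls mut day 10 graft 2 came from 1 cell. WT grafts overlapped between days, since graft 2 of day 10 was below grafts 2 and 3 of day 17.

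Genes of the Th1 list passed in both directions. Il12rb2, the IL-12 receptor chain of Th1 cells, had 225, 319, 331 and 282 CPM in WT day 10 and 916, 619, 606 and 381 in WT day 17 grafts, and 268, 358, 279 and 341 and 579, 671, 652 and 683 in Rnls mut grafts. It rose in both without overlap (0.98 ± 0.18, adjusted p = 0.000501 and 0.96 ± 0.18, adjusted p = 0.000632). Stat4, which carries the IL-12 signal, rose by 1.43-fold and 1.88-fold (adjusted p = 0.0076 and 4.51e-05). Tbx21 had log2 fold changes of 0.42 ± 0.22, adjusted p = 0.197 and 0.13 ± 0.22, adjusted p = 0.703, which did not pass. Cxcr6 fell in Rnls mut grafts, from 577, 722, 732 and 771 to 443, 429, 496 and 432 CPM (-0.73 ± 0.16, adjusted p = 0.00287), and stood at -0.31 ± 0.16, adjusted p = 0.192 in WT grafts. Of 18 tested Th1 genes 5 rose and 1 fell in WT grafts and 5 rose and 3 fell in Rnls mut grafts, namely Ifng, Cxcr6 and Runx3. Among all genes tested, 10.6% and 12.1% rose and 10.1% and 10.4% fell in WT and Rnls mut grafts.

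Of the 10 tested genes of the T follicular helper list 3 rose in WT and 4 in Rnls mut grafts, against 10.6% and 12.1% of all genes, and none fell. Il21 had 6.62, 4.73, 20.5 and 4.39 CPM in WT day 10 and 36.8, 8.25, 116 and 60.7 in WT day 17 grafts, with graft 2 of day 17 inside the day 10 range (2.42 ± 0.48, adjusted p = 0.00107). In Rnls mut grafts it had 2.36, 6.51, 7.55 and 6.78 and 19.3, 10.4, 36 and 23.2 CPM, all day 17 grafts being higher (1.67 ± 0.59, adjusted p = 0.0449). That call was lost without any of 7 of the 8 Rnls mut grafts, the exception being graft 2 of day 17, with log2 fold changes of 1.34 to 1.80 and adjusted p of 0.0616 to 0.17. These levels rest on few cells: 37 of the 58 UMIs of WT day 17 graft 3 came from 1 cell, and an Il21 UMI was found in 2.1% of CD4 T cells and 0.0% of macrophages. Bcl6, the defining transcription factor of follicular helper cells, had 35.4, 23.7, 24.2 and 25.2 CPM at day 10 and 58.8, 70.5, 66.1 and 46.5 at day 17 in Rnls mut grafts and rose there without overlap (1.15 ± 0.19, adjusted p = 0.00023). In WT grafts it had 34.4, 28.4, 16.3 and 31.6 and 44.5, 45.4, 52 and 53.9 CPM (0.67 ± 0.21, adjusted p = 0.026), which did not pass without graft 3 of day 10 or without graft 1, 3 or 4 of day 17 (log2 fold change 0.47 to 0.75, adjusted p 0.0534 to 0.0968). Over cluster 8 alone its WT log2 fold change was -0.41, which did not pass. None of the 3 tested Th2 genes passed in either genotype, and of the 5 tested Th17 genes 2 rose in Rnls mut and none in WT grafts. The Rora call was lost without any 1 of the 8 Rnls mut grafts (0.36 to 0.44, adjusted p 0.051 to 0.1). That of Tmem176b was lost without any of 7, all but graft 4 of day 10 (0.83 to 1.11, adjusted p 0.0503 to 0.129).

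Of 20 tested inhibitory receptor genes 4 rose and 1 fell in each genotype, against 10.6% and 12.1% of all genes that rose and 10.1% and 10.4% that fell, and the medians were 0.06 and -0.04. Ctla4, which outcompetes CD28 for its ligands, had 283, 185, 231 and 158 CPM in WT day 10 and 784, 198, 823 and 499 in WT day 17 grafts, with graft 2 of day 17 inside the day 10 range (1.33 ± 0.25, adjusted p = 0.000744). Ctla4 stood in Rnls mut grafts at 252, 195, 156 and 228 and 389, 462, 452 and 423 CPM without overlap (0.98 ± 0.26, adjusted p = 0.00857). A Ctla4 UMI was found in 16%, 13.6%, 39.3% and 28.9% of cells thinned to 1000 UMIs, in the group order used above, and in at most 1.5% of macrophages. Nrp1 rose by 3.38-fold and 2.75-fold. Havcr2, the gene of TIM-3, fell in Rnls mut grafts, from 272, 406, 484 and 364 to 91.9, 43.5, 80.1 and 116 CPM (-2.34 ± 0.45, adjusted p = 0.000846). In WT grafts it had 222, 282, 292 and 289.6 and 44.5, 16.5, 358 and 53.9 CPM, with graft 3 of day 17 above all of day 10 (-1.32 ± 0.44, adjusted p = 0.0338), and that call was lost without any of grafts 2, 3 and 4 of day 10 or grafts 1, 2 and 4 of day 17 (log2 fold change -1.30 to -0.89, adjusted p 0.0638 to 0.173). Over cluster 8 alone the WT value for Havcr2 was 0.33, which did not pass. Pdcd1, the gene of PD-1, had -0.14 ± 0.23, adjusted p = 0.727 and -0.28 ± 0.23, adjusted p = 0.415, which did not pass.

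Genes of naive, memory and recirculating T cells rose in part, with 4 of 15 tested up and 1 down in WT grafts and 7 up and 2 down in Rnls mut grafts. The shares of all genes were 10.6% and 12.1% up and 10.1% and 10.4% down in WT and Rnls mut grafts. Klf2, which keeps T cells in circulation, had 109, 139, 130.2 and 142 CPM in WT day 10 and 301, 346, 254 and 378 in WT day 17 grafts, and 163, 179, 257 and 234 and 341, 394, 282 and 339 in Rnls mut grafts. All day 17 grafts were above the day 10 grafts of their genotype (1.11 ± 0.17, adjusted p = 6.93e-05 and 0.60 ± 0.16, adjusted p = 0.00876). Bach2, a repressor of effector differentiation, rose from 176, 217, 169 and 212 to 506, 477, 442 and 325 CPM in Rnls mut grafts (1.11 ± 0.18, adjusted p = 0.000138) and in WT grafts had a log2 fold change of 0.71 ± 0.18, adjusted p = 0.00758. Tcf7, the factor of stem-like and memory T cells, rose from 62.5, 55.1, 37.3 and 61 to 176, 155, 118 and 102 CPM in Rnls mut grafts (1.36 ± 0.29, adjusted p = 0.00205). In WT grafts it had 76.8, 78.1, 65.8 and 61.4 and 119, 53.6, 44 and 233 CPM, which overlapped (0.49 ± 0.30, adjusted p = 0.276), and the difference between genotypes in the day change did not pass (0.87 ± 0.42, adjusted p = 0.569). In WT grafts the list had 1 rise without graft 1 of day 17 and 8 rises and 2 falls without graft 3 of day 17. Within cluster 8 alone no member passed in either genotype.

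**Figure D4:**
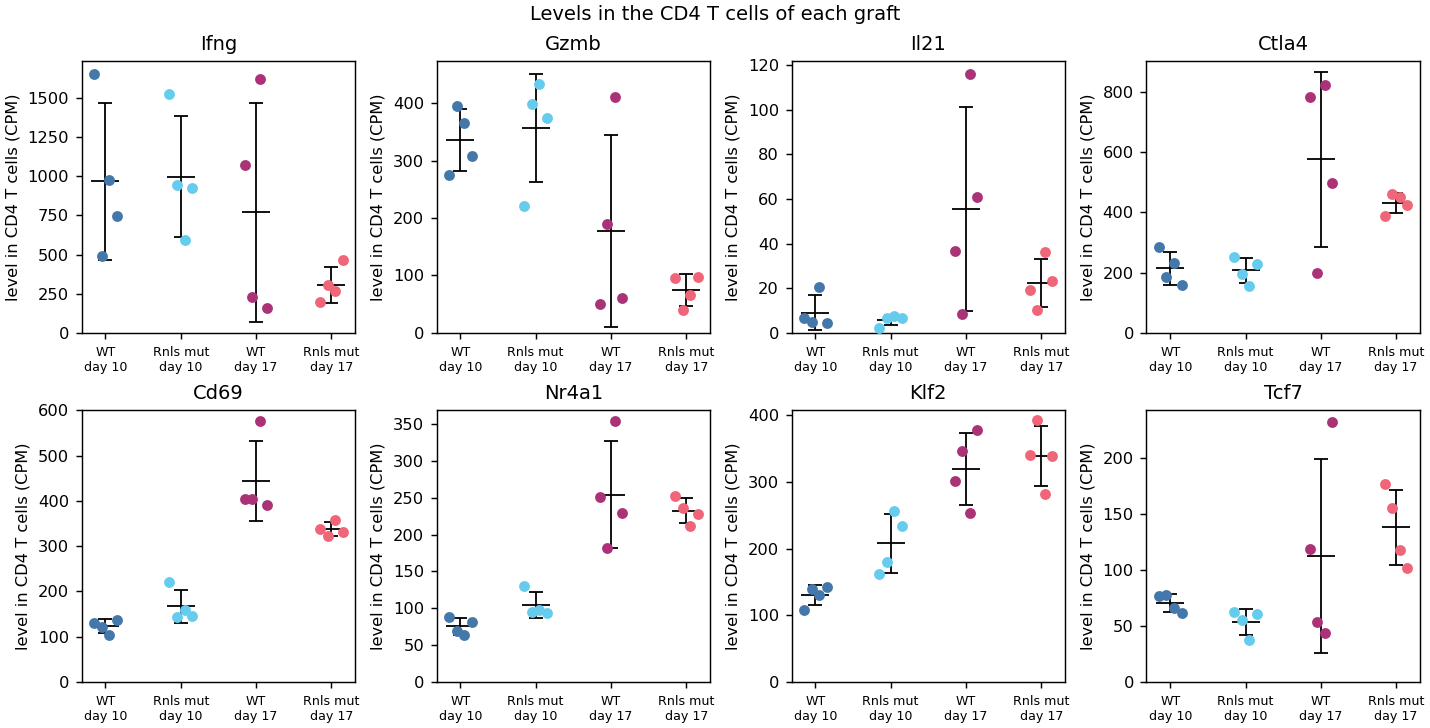
Level (CPM) of 8 genes in the CD4 T cells of each of the 16 grafts, with 1 point per graft and the mean ± SD of 4 grafts per genotype and day. Cd69, Nr4a1 and Klf2 are higher in every day 17 graft than in the day 10 grafts of the same genotype, while Ifng and Gzmb overlap between days in WT grafts (Ifng up to 1617 at day 17) and not in Rnls mut grafts.

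Cytokine receptor and Jak-Stat genes moved in 1 direction, with 9 of 32 tested up in WT and 12 in Rnls mut grafts and none down, while within cluster 8 alone none and 1 rose. Il21r, the receptor of IL-21, had 164, 161, 149 and 112 CPM in WT day 10 and 321, 334, 352 and 266 in WT day 17 grafts, and 169, 170.5, 115 and 152 and 247, 338, 318 and 199.9 in Rnls mut grafts (0.96 ± 0.16, adjusted p = 0.000148 and 0.81 ± 0.15, adjusted p = 0.000799). The days did not overlap. Without graft 1 of WT day 17 the WT count was 4, and over single left-out grafts it was 8 to 12 in Rnls mut grafts. Among survival genes, Bcl2, which blocks mitochondrial apoptosis, rose in both genotypes (1.33 ± 0.29, adjusted p = 0.00222 and 1.15 ± 0.28, adjusted p = 0.0048), as did Birc3, Gimap3 and Gimap6, while the death receptor gene Fas fell. Over cluster 0 alone Bcl2 had a log2 fold change of -1.27 in WT grafts, which did not pass. The fall of Fas in Rnls mut grafts (-0.99 ± 0.27, adjusted p = 0.011) was lost without graft 1 of Rnls mut day 17 (-0.73, adjusted p 0.0959). Of 21 tested survival genes 6 rose and 3 fell in WT and 5 rose and 3 fell in Rnls mut grafts. Over all genes tested, 10.6% and 12.1% rose and 10.1% and 10.4% fell in WT and Rnls mut grafts.

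Of 31 tested type I interferon response genes 1 rose and 5 fell in WT grafts and 2 rose and 4 fell in Rnls mut grafts, against 10.1% and 10.4% of all genes that fell. Irf7, the amplifier of that response, fell in both (-1.28 ± 0.33, adjusted p = 0.00729 and -1.39 ± 0.32, adjusted p = 0.00358), and in WT grafts the call was lost without graft 1 of day 17 (-1.17, adjusted p 0.0525). Of 32 tested IFNγ response genes 4 rose and 3 fell in WT grafts and 1 rose and 8 fell in Rnls mut grafts. Of all genes tested, 10.6% rose and 10.1% fell in WT grafts, so the WT counts were near those shares. In Rnls mut grafts 12.1% of all genes rose and 10.4% fell, and the count of falls in the list was 3 without graft 1 of Rnls mut day 17. Psme1 and Psme2, the subunits of the proteasome activator PA28, fell in both genotypes.

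Glycolysis and hypoxia genes parted by graft. Gapdh had 1196, 1194, 985 and 1084 CPM in WT day 10 and 733, 722, 2634 and 859.6 in WT day 17 grafts, where graft 3 was above all others and the remaining grafts were below day 10. Rnls mut grafts had 1490.3, 1601, 1468 and 1476 and 691, 634, 1059 and 762 CPM, and Gapdh fell there without overlap (-1.03 ± 0.27, adjusted p = 0.00871). In WT grafts 1 of 28 tested genes rose and 2 fell, but without graft 3 of day 17 none rose and 14 fell, and without graft 1 of day 17 6 rose and 1 fell. Among Rnls mut grafts 12 genes fell and none rose, and over single left-out grafts 5 to 11 fell, while within cluster 8 alone none passed. Of all genes, 10.6% and 12.1% rose and 10.1% and 10.4% fell in WT and Rnls mut grafts. Graft 3 of WT day 17 was also the graft with the lowest share of CD4 T cells (6.21%) and the highest Gzmb and Havcr2 of its group, and what set it apart was not tested.

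Of 22 T cell identity genes 6 rose and 2 fell in WT grafts and 6 rose and none fell in Rnls mut grafts, with medians of 0.27 and 0.13. For all genes tested, 10.6% and 12.1% rose and 10.1% and 10.4% fell in WT and Rnls mut grafts. Cd4 rose from 214, 235, 248 and 229 to 324, 309, 442 and 337 CPM in WT and from 211, 229, 231 and 233 to 359, 315, 348 and 321 in Rnls mut grafts, by 1.36-fold and 1.40-fold without overlap (adjusted p = 0.00667 and 0.00343). None of the 12 tested cell cycle genes passed among the cells annotated CD4 T cell. Cells annotated Stem-Progenitor, which held 71.9 CPM of Cd4, were not in this comparison. Any dividing CD4 T cells with that annotation were thus not counted. Ribosomal protein genes fell, 58 of 87 in WT and 36 in Rnls mut grafts with 1 up in each, at medians of -0.34 and -0.24. Myb, a transcription factor of progenitors, fell from 55.6, 46.7, 48.1 and 41.2 to 9.20, 4.12, 4.0 and 3.37 CPM in WT and from 48.3, 40.8, 30.2 and 34.8 to 8.27, 8.29, 6.0 and 9.30 in Rnls mut grafts, with no overlap (-2.96 ± 0.27, adjusted p = 9.65e-08 and -2.32 ± 0.27, adjusted p = 2.41e-06).

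Comparisons of Rnls mut with WT grafts at the same day gave few calls, and most were transcripts of myeloid cells. At day 10 18 genes (0.229%) were lower and none was higher in Rnls mut grafts in this fit (663, or 8.44%, at an unadjusted p under 0.05). Other fits also called genes higher in Rnls mut grafts, 7 of 53 calls by DESeq2 and 14 of 72 with only the 2 groups compared. At day 17 33 (0.42%) were higher and 1 (0.0127%) was lower. Genes whose level in macrophages, monocytes or dendritic cells was over 3 times that in CD4 T cells made up 10 of the 18 and 27 of the 33, against 8.09% of all genes tested. Among the 10, the call of Polr2l was lost without any 1 of the 8 day 10 grafts (-0.97 to -0.87, adjusted p 0.0842 to 0.193). That of Apoe was lost without any of 6 of them (-1.84 to -1.60, adjusted p 0.0604 to 0.222). H2-Aa, an MHC class II chain of antigen-presenting cells, had 62.2, 72.2, 66.5 and 84.2 CPM in WT and 37.7, 27.2, 28.2 and 35.8 in Rnls mut day 10 grafts, and 60.6, 57.7, 50.0 and 70.8 in WT and 197, 245, 272 and 265 in Rnls mut day 17 grafts. Rnls mut grafts had less of it at day 10 (-1.21 ± 0.15, adjusted p = 0.000175) and more at day 17 (2.05 ± 0.16, adjusted p = 4.94e-08), without overlap. Ccl8, a chemokine of macrophages, went the same way (-1.07 ± 0.17, adjusted p = 0.00206 and 2.58 ± 0.17, adjusted p = 2.77e-09), as did lysozyme (Lyz2), at -1.09 ± 0.16 and 1.76 ± 0.16.

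The sum of 12 macrophage and monocyte markers moved with these genes. Not every member is particular to myeloid cells, since Ly6c2 is also in the Th1 list and Ccr2 in that of trafficking receptors. The summed level in CD4 T cells was 384 to 484 CPM in WT day 10, 236 to 381 in Rnls mut day 10, 506 to 655 in WT day 17 and 1287 to 1520.2 in Rnls mut day 17 grafts. The 9 dendritic cell markers summed to 344 to 453, 188 to 228, 227 to 334 and 853 to 1046 CPM, with Flt3 and Clec9a at 0 in all. The 8 NK cell and ILC1 markers summed to 50.3 to 82.1, 28.4 to 68.4, 60.6 to 97.8 and 117 to 162 CPM. No UMI of 7 beta cell markers, Ins1 and Ins2 among them, was counted in CD4 T cells. The C1q genes of macrophages stood in CD4 T cells at 0.924%, 0.638%, 1.41% and 4.41% of their level in macrophages in the same group order. The macrophage level of H2-Aa at that ratio equals 87.2%, 125%, 175% and 175% of what was measured in CD4 T cells, while for Cd69 it is at most 0.5%. In the day comparison of Rnls mut grafts 7 of 8 tested macrophage markers rose, and the 12 genes with the smallest p among those that rose, Apoe, Ccl8, Wfdc17, Lyz2 and C1qa among them, were all over 3 times higher in myeloid cells.

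Of the calls left at day 10 when such genes are set aside, Sema3c, a secreted semaphorin, had 46.3, 44.4, 55.2 and 49.1 CPM in WT and 22.4, 21.3, 23.2 and 23.2 in Rnls mut grafts, without overlap (-1.14 ± 0.15, adjusted p = 0.00022). The others were Cmss1, mitochondrially encoded transcripts (mt-Atp8, mt-Nd2 and mt-Nd4l), Rpl35 and 2 unnamed gene models. The calls of mt-Nd2 and mt-Nd4l were lost without any of grafts 2, 3 and 4 of Rnls mut day 10 or grafts 3 and 4 of WT day 10, and that of mt-Nd4l also without graft 2 of WT day 10 (log2 difference -0.53 to -0.50, adjusted p 0.0808 to 0.124 for mt-Nd2 and -0.52 to -0.49, adjusted p 0.0911 to 0.167 for mt-Nd4l). No gene of the T cell receptor, inhibitory receptor, Th1, Th2, Th17, follicular helper, cytotoxicity, cytokine, chemokine, Jak-Stat, interferon, glycolysis, survival or T cell identity lists passed at either day. For Tgfb1, a cytokine that restrains T cells, the levels were 204, 162, 166 and 179.9 CPM in WT and 245, 206, 242 and 190.2 in Rnls mut day 10 grafts, and 247, 214, 250.2 and 216 and 254, 249, 232 and 260.4 at day 17. The genotypes overlapped at both days (0.28 ± 0.11, adjusted p = 0.41 and 0.12 ± 0.12, adjusted p = 0.83).

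**Figure D5:**
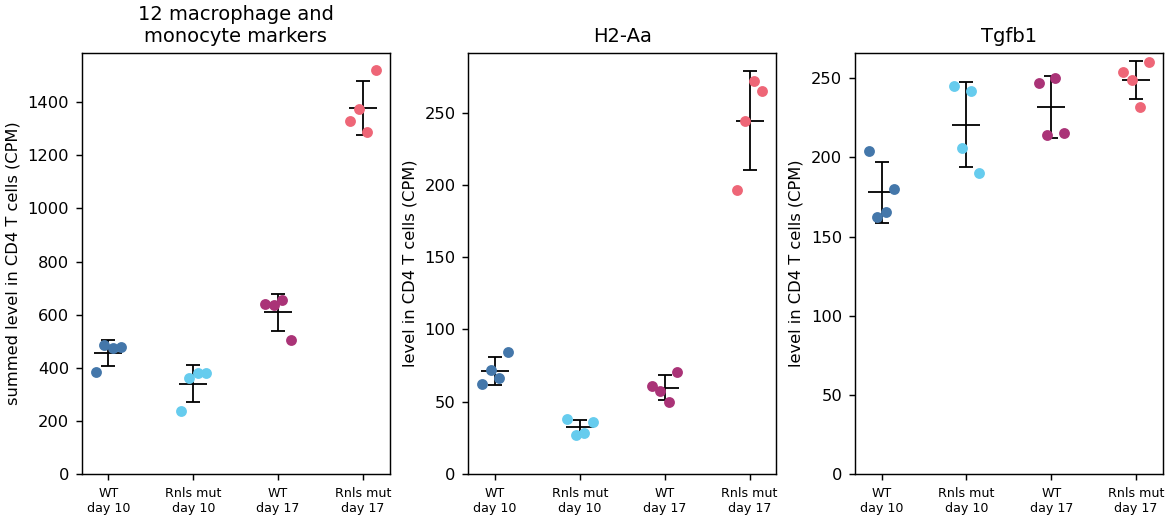
Summed level of 12 macrophage and monocyte markers, and levels of H2-Aa and Tgfb1, in the CD4 T cells of each graft (CPM), with 1 point per graft and the mean ± SD of 4 grafts per genotype and day. The marker sum and H2-Aa are highest in the 4 Rnls mut day 17 grafts (1287 to 1520.2 for the sum), while Tgfb1 lies between 162 and 260.4 over all grafts.

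The genotype difference itself differed between the days for 50 genes (0.636%), 46 (0.585%) in the direction of Rnls mut at day 17 and 4 (0.0509%) in the other. Of the 46, 26 were over 3 times higher in myeloid cells. Among the remaining genes, Bcl2l11, which encodes the proapoptotic protein BIM, had 565, 709.9, 653 and 600.2 CPM in WT day 10, 483, 509.7, 486 and 591 in Rnls mut day 10, 439, 359, 376 and 357 in WT day 17 and 574, 512, 482 and 474 in Rnls mut day 17 grafts. It was lower in WT grafts at day 17 than at day 10 without overlap and about level in Rnls mut grafts (0.77 ± 0.16, adjusted p = 0.0163 for the difference), a call lost without graft 1 of Rnls mut day 17 or graft 2 of WT day 10 (0.71 and adjusted p 0.0552 to 0.0755). Tap2, a peptide transporter for MHC class I, had 53, 58, 68 and 64.1, 92, 98.3, 78.6 and 81.3, 133, 99, 124 and 80.9 and 70.8, 95.3, 80.1 and 93 CPM as grafts 1 to 4 of the same groups in turn (-0.92 ± 0.22, adjusted p = 0.048), and this was lost without any of 13 of the 16 grafts, all but grafts 2 and 4 of WT day 17 and graft 2 of Rnls mut day 17 (log2 difference -0.97 to -0.77, adjusted p 0.0585 to 0.2).

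The day change of CD4 T cells was compared with that of CD8 T cells in the same grafts, with the graft as a block, and differed for 160 of 7984 genes (2%), 122 (1.53%) in the direction of CD4 T cells and 38 (0.476%) in that of CD8 T cells. Mpp7, a membrane scaffold protein gene, went from 127 ± 42.9 to 522 ± 155 CPM in CD4 T cells and from 171 ± 33.5 to 314 ± 106 in CD8 T cells (mean ± SD over 8 grafts, difference in log2 change 1.25 ± 0.14, adjusted p = 2.18e-08). Jak2, a kinase of cytokine receptors, went from 424 ± 37.2 to 595 ± 123 CPM in CD4 and from 366 ± 35.3 to 285 ± 39.9 in CD8 T cells (0.84 ± 0.11, adjusted p = 6.61e-07), and Stat5b, which carries the IL-2 signal, from 210.0 ± 15.7 to 329.6 ± 70.0 and from 219 ± 33.3 to 185 ± 53.9 (0.88 ± 0.12, adjusted p = 2.37e-06). Of the 31 tested cytokine receptor and Jak-Stat genes 10 differed towards CD4 T cells and none towards CD8 T cells.

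In the other direction, Ccl4, a chemokine of cytotoxic cells, went from 259.8 ± 173 to 124 ± 166 CPM in CD4 T cells and from 165 ± 59.5 to 635 ± 478 in CD8 T cells (-3.05 ± 0.34, adjusted p = 2.18e-08). Maf, a transcription factor of helper and regulatory T cells, went from 36.7 ± 13.1 to 225 ± 117 CPM in CD8 T cells and stood at 193 ± 16.7 and 235 ± 39.3 in CD4 T cells (-2.27 ± 0.21, adjusted p = 3.29e-10). Cd4 itself had the larger log2 change in CD8 T cells, from 14.5 ± 8.27 to 101 ± 68.1 CPM (-2.27 ± 0.27, adjusted p = 1.14e-07), and a Cd4 UMI was found in 3.3%, 2.3%, 21.0% and 15.2% of the cells annotated as CD8 T cells in WT day 10, Rnls mut day 10, WT day 17 and Rnls mut day 17 grafts. The part of these cells in the differences from CD8 T cells was not tested. The genotype difference at day 10 differed between CD4 and CD8 T cells for 1 of the 7984 genes (0.0125%), the interferon-induced gene Ifit1 (-2.09 ± 0.36, adjusted p = 0.00405), and the call was lost without graft 2 of WT day 10 or graft 2 of Rnls mut day 10 (-1.81 to -1.37, adjusted p 0.253 to 0.99987). Without the graft block 15 genes passed in the day comparison of CD4 with CD8 T cells.

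Between CD4 T cells and Treg, 60 of 5636 genes (1.06%) differed in the day change, 49 (0.869%) towards CD4 T cells and 11 (0.195%) towards Treg, in 8 grafts at day 10 and 6 at day 17 with at least 10 Treg. Ctla4 went from 211 ± 45.4 to 504 CPM in CD4 T cells and from 1782 ± 243 to 2173 ± 497 in Treg (1.21 ± 0.16, adjusted p = 2.22e-06), so that its level in CD4 T cells stayed under that of Treg. Socs3, an inhibitor of Stat3 signals, went in CD4 T cells from 34.3 ± 6.39 to 75.2 CPM, and stood at 96.8 ± 53.1 and 33.1 ± 27.5 in Treg (2.54 ± 0.44, adjusted p = 0.000415). Itgav, the integrin chain αV that takes part in the activation of latent TGFβ, went in Treg from 248 ± 51 to 577 ± 174 CPM, and stood at 75.6 and 66.7 in CD4 T cells (-1.60 ± 0.23, adjusted p = 2.17e-05). The CD4 means of day 17 in this paragraph are over 8 grafts. Without the graft block 14 genes passed.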

How the data were processed

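CD45+ cells sorted from subcutaneous grafts were measured by droplet 3′ RNA sequencing in 4 libraries of 4 hashtagged grafts each. Per the processing notes of the submitters, reads were processed with Cell Ranger against mm10. The files hold unnormalised counts of UMIs, deposited by the authors as 1 table of genes by cells, and a second table names the graft, cluster and cell type of each cell. Filters on cells, hashtag assignment and the method of annotation are not given in the sources used here, and the annotation was used as deposited. The lowest total was 1001 UMIs per cell and the highest 24598, and 0 columns belonged to samples of other series. Intervals cover counting error only.

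CD4 T cells were taken by the deposited annotation and their counts summed per graft, with at least 10 cells per graft. The sums were fitted with edgeR 4.0.16 (R 4.3.3) by the quasi-likelihood test with TMM scaling, its filter on low counts and 4 groups in 1 fit, and p-values were adjusted by Benjamini-Hochberg with a threshold of 0.05. Comparisons with CD8 T cells and Treg kept the graft as a block. Each ± of a log2 fold change is the SE. Grafts are separate grafts told apart by hashtag, and p-values measure the spread between them. The paper describes the grafts as paired, with both genotypes in the same mouse. Which grafts form a pair is not given in the sources used here, so the genotype tests treated all grafts as independent. Shares were compared by exact permutation tests over 70 assignments of 4 against 4 grafts, whose smallest two-sided p is 0.0286.

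The members and the 30 gene lists (448 genes) were chosen with earlier results of these data known. Named were 35 core genes, up to 4 called members of each list, the 12 genes per direction with the smallest p (8 in comparisons between types, ribosomal, mitochondrial and unnamed genes left out), and the leading genes of the CD4 T cells (at least 50 CPM) and of each cluster (at least 100 CPM). Of these the text describes the ones that bear on each gene group, and other genes named in passing are members of the lists. The alternatives were DESeq2 1.42.0, no filter on low counts, other cell and graft minimums, other denominators, single clusters, replicate blocks, each graft left out in turn, and fits without the 6% of cells with the highest Scrublet scores (scanpy 1.11.5). Scrublet's own threshold marked only 1 cell (0.00446%), so it was not used to remove doublets. Cells with a UMI of Cd8a, Cd8b1 or Foxp3, or at least 2 UMIs of other lineage markers, were left out in a further alternative. This took out 2646 of the 4876 CD4 T cells, among them 72.8% of the cells of cluster 8. The lineage markers used there include Ly6c2 and Ccr2, which are also in lists of T cell genes. Fits on single clusters 7 and 8, without cluster 22, without genes higher in myeloid cells, and shares without macrophages were chosen after seeing the data. The scripts were tested on simulated data. Rnls and Mx1 were not analysed here, and a few genes of the lists are counted in them but not reported by name.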

Additional observations from a re-analysis of the deposited data

Results flagged for a closer look

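Of 133 groups of 4 grafts, 11 held a graft far from the other 3, where chance gives about 1 in 20. Graft 1 of Rnls mut day 10 stood apart in 5 of them, with Nkg7 at 582 CPM (747 to 770.04 in the others), Pdcd1 at 149.7 (83.7 to 93.7), Tox at 94.3 (34.8 to 40.2), Nr4a1 at 131 (93.9 to 97.7) and Bcl6 at 35.4 (23.7 to 25.2). Graft 1 of WT day 10 had Cd3e at 936 CPM (1088 to 1111 in the others), Gata3, a transcription factor of Th2 cells, at 100.6 (139 to 144), and 15.4% of its cells in cluster 8 (2.12 to 3.65%). Il21 was at 20.5 CPM in graft 3 of WT day 10 (4.39 to 6.62). Cd69 was at 576 CPM in graft 3 of WT day 17 (391 to 405), and Il4 at 119.6 in graft 2 of WT day 17, with 0 in the others.

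The genotype difference changed between the days by the test of that difference (log2 difference, Rnls mut minus WT at day 17 less that at day 10) for macrophage genes and MHC class II genes, with Ccl8 at 3.64, Lyz2 at 2.85, Tyrobp at 2.99, C1qa at 2.60, C1qb at 2.78, C1qc at 3.22, Apoe at 3.82, Retnla at 4.41, Wfdc17 at 2.30, Ccl6 at 2.52, H2-Aa at 3.26, H2-Ab1 at 3.22, H2-Eb1 at 3.12 and Cd74 at 2.45. Of mitochondrially encoded transcripts it was 1.14 for mt-Atp8, 0.88 for mt-Nd3 and 0.78 for mt-Nd4l, and it was 0.77 for Bcl2l11. In the other direction stood Ppp1r15a, a regulator of the integrated stress response, at -1.12, Rab28 at -1.43 and Tap2 at -0.92. Several of these calls were lost when some single graft was left out. For Ppp1r15a these were grafts 1, 3 and 4 of WT day 10, graft 3 of Rnls mut day 10, graft 1 of WT day 17 and grafts 1 and 4 of Rnls mut day 17 (-1.14 to -1.03, adjusted p 0.0514 to 0.116). For Rab28 they were grafts 2 and 4 of WT day 10, graft 2 of Rnls mut day 10, grafts 1 and 3 of WT day 17 and grafts 1, 2 and 4 of Rnls mut day 17 (-1.43 to -1.31, adjusted p 0.0504 to 0.142). The call of mt-Nd3 was lost without any of 13 of the 16 grafts, all but graft 4 of Rnls mut day 10, graft 4 of WT day 17 and graft 3 of Rnls mut day 17 (0.68 to 0.93, adjusted p 0.0585 to 0.232), and that of mt-Nd4l without graft 1 of Rnls mut day 17 (0.75, adjusted p 0.0552).

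The day change of CD4 T cells differed from that of CD8 T cells towards CD4 T cells for Mpp7 (1.25), Jak2 (0.84), Stat5b (0.88), Gramd3 (0.55), Vps37b (0.59), Tnfaip8 (0.87), Ern1 (0.82) and Il12rb2 (0.80). Towards CD8 T cells it differed for Maf (-2.27), Ccl4 (-3.05), Cd4 (-2.27), Dst (-2.21), Actb (-0.28), Pkm (-0.60), Nkg7 (-0.48) and Rgs1 (-0.63). The genotype difference at day 10 differed between these types for Ifit1 (-2.09).

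Against Treg, the log2 day change was higher in CD4 T cells for Ctla4 (1.21), Trib2 (2.06), Ifi27l2a (0.85), Socs3 (2.54), Slamf6 (1.28), Icos (0.62), Ramp3 (1.11) and Fabp5 (1.89). It was lower for Itgav (-1.60), Pkp4 (-2.13), Hsp90aa1 (-0.86), Hsp90ab1 (-0.64), Itga4 (-1.75), Klrg1 (-1.50), Rel (-0.68) and Nrip1 (-0.86). Of the 16 genes named in this comparison 7 lost the call when some single graft was left out, Pkp4 for example at -0.81 and adjusted p 0.78 without graft 3 of WT day 17.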

How the results depend on the processing

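Called genes numbered 349, 30 and 205 in the WT day comparison and 534, 56 and 97 in the Rnls mut one over cluster 7, cluster 8 and the largest cluster (0) alone, and 608 and 786 without cells with UMIs of other types. Fits on cluster 0 kept 2 of 4 grafts in each day 17 group, and all single-cluster fits have fewer cells. For genotype at day 10 (18 calls, none higher in Rnls mut grafts) counts were 53 with DESeq2 (7 higher), 86 with no filter on low counts (22 higher) and 72 with only the 2 groups compared (14 higher). They were 1 in cluster 8, 10 without cells with UMIs of other types and 8 without genes higher in myeloid cells. At day 17 (34 calls) they were 15 in cluster 8, 3 in cluster 0, 124 with no filter, 22 with only 2 groups, 4 without such cells and 0 without such genes (626 at an unadjusted p under 0.05). For the change of the genotype difference (50 calls) they were 7 and 8 in clusters 8 and 0, 138 with no filter, 14 without such cells and 17 without such genes. Without the graft block the CD8 and Treg day comparisons had 15 and 14 calls. The CD8 comparison of genotype at day 10 (1 call) had 0 with DESeq2 or no graft block, 2 with at least 30 cells and 3 with no filter. With the causes not tested, leaving out single grafts gave 943 to 1900 and 1111 to 1620 calls (lowest without graft 1 of WT and of Rnls mut day 17), 13 to 18 and 26 to 40 for genotype, 34 to 59 for its change, 111 to 212 and 0 to 2 for CD8 and 40 to 78 for Treg. The share of CD4 T cells changed by -6.80 to 2.06 percentage points in WT grafts (0.13 without graft 2 of day 10 and 2.06 without graft 3 of day 17) and by -17.9 to -10.0 in Rnls mut grafts. With T cells, lymphoid cells or all cells but macrophages as denominator it changed by 17.4, 11.6 and 11.2 points in WT and by 7.73, 3.55 and 7.97 in Rnls mut grafts, the reverse of -2.01 and -12.7 over all cells.

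Nothing in the sources used here ties the hashtag numbers to mice, and they were not used as pairs. Same-numbered grafts of the genotypes had correlations of their deviations of 0.265, 0.116, 0.019 and -0.00276 at day 10 and 0.0358, 0.0842, 0.127 and 0.0134 at day 17, and 5 of 8 correlated best with their own number. With the hashtag number as replicate block the calls were 1557 and 1668 for the days, 21 and 31 for genotype and 50 for its change. With day and hashtag number as replicate block they were 45, 50 and 69 for genotype at day 10, at day 17 and its change. Of the 45 at day 10, 11 were higher in Rnls mut grafts.

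Log2 fold changes of the day turned direction within single clusters for these genes, none past the threshold there. In WT grafts these were, in cluster 8, Tnfaip3 (-0.022), Klf2 (-0.23), Fos (-1.47), Egr1 (-0.011), Havcr2 (0.33), Runx3 (0.075), Bcl6 (-0.41), Areg (-0.18), Tnfsf11 (-0.27), mt-Nd3 (0.53) and mt-Nd2 (0.42), in cluster 7 Cd6 (-0.18), Tnf (-0.84), Ccl1 (3.01) and mt-Nd2 (0.055), and in cluster 0 Lncpint (-0.69), Gzmb (0.63), Il27ra (-0.13), Fasl (-0.39), Ddit4 (0.71), Hk2 (0.13) and Bcl2 (-1.27). In Rnls mut grafts they were, in cluster 0, Bcl11b (-0.73), Cd4 (-0.085), Tcf7 (-0.056), Bach2 (-0.66), Irf8 (0.028), Egr1 (-0.26), Rora (-0.44), Slamf6 (-0.27), Csf2 (0.88), Gpr183 (-0.39) and Birc3 (-0.035), and in cluster 8 Egr1 (-0.80) and Gpr183 (-0.022). The genotype change of mt-Nd3 was -0.23 in cluster 8. A minimum of 30 cells could not be fitted for Treg, and grafts with under 10 Treg were not left out in turn.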

Other observations

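The T cell receptor genes of the CD4 T cells were spread over many V segments. Of 1870 UMIs of Trbv genes, 12.5% (234) were Trbv15, 12% (224) Trbv12-2 and 10.9% (203) Trbv13-2, and Trbv15 reached 33.3% in graft 3 of WT day 17. Of 1598 UMIs of Trav genes, 24.0% (383) were Trav5-4 and 15.6% (249) Trav16n, and reads of near-identical Trav copies may be split between them. These are counts of 3′ reads and not of clones.

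All 29 Il4 UMIs of graft 2 of WT day 17 came from 1 cell, of 33 Il4 UMIs in all CD4 T cells. A total of 9 genes passed in both day comparisons in opposite directions. In WT and Rnls mut grafts in turn the log2 fold changes were -1.84 and 1.72 for Aif1, -0.61 and 1.84 for Cd74, -0.97 and 1.21 for Fcer1g, -0.68 and 2.54 for H2-Ab1, -0.65 and 2.46 for H2-Eb1 and -0.78 and 1.24 for Lst1, genes that antigen-presenting or other myeloid cells express. For Cmss1 they were -0.46 and 0.98, for mt-Nd3 -0.45 and 0.42 and for Rab28 0.70 and -0.73. The calls of mt-Nd3 were lost without any of grafts 2 and 3 of day 10 or grafts 1, 2 and 3 of day 17 in WT grafts and without graft 1 or 3 of day 10 or graft 1 of day 17 in Rnls mut grafts. The WT call of H2-Ab1 was lost without graft 4 of day 10 or graft 3 of day 17.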
